A study of Mus musculus with 14 samples.

Results

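The Hoxb cluster is the group of 10 Hox genes on mouse chromosome 11, Hoxb1 to Hoxb9 and Hoxb13. All 10 were taken by name from the 21631 protein-coding genes measured here, whatever their values. In build mm10 the cluster runs from the first base of Hoxb13 to the last base of Hoxb1 (chr11:96194316-96368254, 173.9 kb), and the 9 genes Hoxb9 to Hoxb1 lie together in 96.9 kb of it (chr11:96271330-96368254). A gap of 74.7 kb separates Hoxb13 from Hoxb9.

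ChIP-seq, the sequencing of DNA pulled down with an antibody to a chromatin protein or mark, had been run on mouse cells labelled PDGF neural stem cells. In the design text they are mouse DIPG cells, named for diffuse intrinsic pontine glioma, a brainstem tumour of children. Peak lists of 12 libraries were measured. The groups were K27M EPZ and H3WT EPZ, treated for 12 days with 3 µM EPZ6438, an inhibitor of the methyltransferase Ezh2, and K27M DMSO and H3WT DMSO, given the solvent for 12 days. K27M cells expressed histone H3.3 with methionine in place of lysine 27, H3WT cells expressed wild-type H3.3, and both genotypes carried the PDGF label. H3K27me3 was mapped in 2 libraries of each of the 4 groups, and Suz12 and Ring1b in 1 library of each genotype in DMSO. The cells were grown in serum-free neural stem cell medium on laminin. How H3.3 and PDGF were introduced, whether a genotype is 1 line or clone, and whether replicates came from separate cultures are not given in the sources used here, so the spread between replicates may be technical.

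Hox genes encode homeodomain transcription factors that set position along the body axis, and their order on the chromosome follows the order of their expression from head to tail. In cells where they are silent, the clusters are held by Polycomb proteins. Polycomb repressive complex PRC2, with the methyltransferase Ezh2 and the subunit Suz12, trimethylates lysine 27 of histone H3 (H3K27me3). PRC1, with the ubiquitin ligase Ring1b, can bind that mark, and H3 with K27M is known to hamper PRC2.

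The lists give where a peak was called and nothing about its height, so each value below is a length or a share of bases under peaks ("cover"). The window of a gene is the gene with 10 kb to either side. Windows of neighbouring Hoxb genes overlap and single peaks span several genes, so the 10 members are not independent of each other. The cells were measured in bulk, so a mark in fewer cells and a weaker mark in every cell cannot be told apart. The H3K27me3 lists held 201 and 340 peaks in K27M EPZ and 278 and 271 in H3WT EPZ, against 2351 and 17980 in K27M DMSO and 13358 and 59899 in H3WT DMSO. Total cover was 1.103 and 2.09 Mb in K27M EPZ and 2.36 and 1.98 Mb in H3WT EPZ, against 13.5 and 65.5 Mb in K27M DMSO and 43.6 and 217 Mb in H3WT DMSO. Replicates within the DMSO groups thus stood far apart, and the number of reads behind each list is not given in the sources used here. Peak lists hold no expression, so the cell type could be set only against markers as peaks: of 14 markers of neural stem cells and glial progenitors, 1 had a peak over the gene in each K27M DMSO library and 1 in each H3WT DMSO library. Of 5 markers each, microglia had 0 in either group, endothelium had 1 in both groups, and fibroblasts had 0 in K27M DMSO and 1 in H3WT DMSO. The K27M label and the action of EPZ6438 could not be checked against a targeted gene in these lists.

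Promoter sequence was at hand for Hoxb8, Hoxb4 and Hoxb1, which lie in the 5′, middle and 3′ stretches of the cluster. They are shown because peaks covered them in different libraries. Each runs from 250 bases before to 50 bases after the transcription start on the plus strand (RefSeq, GRCm38.p6), with CG dinucleotides in capitals. Hoxb8 (chr11:96281655-96281954), a gene of the posterior trunk and of blood progenitors, has 13 CG and 42.3% G and C. Hoxb4 (chr11:96318017-96318316), a hindbrain gene also known for expanding blood stem cells, has 14 CG and 58.0% G and C. Hoxb1 (chr11:96365508-96365807), which gives identity to the hindbrain segment of the facial nerve, has 10 CG and 59.3% G and C. Over the 32841 promoters of that table the median was 7 CG, with quartiles of 3 and 20, so all 3 lie between the median and the upper quartile.
Hoxb8: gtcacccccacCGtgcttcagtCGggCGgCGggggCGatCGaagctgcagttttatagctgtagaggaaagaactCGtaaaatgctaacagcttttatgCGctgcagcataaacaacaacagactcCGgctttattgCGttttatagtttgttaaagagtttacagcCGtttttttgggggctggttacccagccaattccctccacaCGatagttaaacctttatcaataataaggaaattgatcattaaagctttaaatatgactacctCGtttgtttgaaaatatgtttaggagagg
Hoxb4: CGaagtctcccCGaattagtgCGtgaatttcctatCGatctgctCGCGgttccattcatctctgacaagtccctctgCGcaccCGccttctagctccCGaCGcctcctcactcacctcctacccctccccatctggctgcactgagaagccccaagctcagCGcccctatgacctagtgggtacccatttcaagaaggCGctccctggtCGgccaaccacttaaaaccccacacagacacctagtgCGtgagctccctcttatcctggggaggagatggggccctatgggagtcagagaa
Hoxb1: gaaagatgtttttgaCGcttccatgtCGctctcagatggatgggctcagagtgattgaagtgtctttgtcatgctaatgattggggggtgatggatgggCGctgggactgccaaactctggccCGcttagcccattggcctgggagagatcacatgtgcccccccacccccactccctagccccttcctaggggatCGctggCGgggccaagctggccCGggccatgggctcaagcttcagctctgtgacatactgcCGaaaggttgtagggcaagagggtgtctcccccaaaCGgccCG

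These 300 bases were covered differently by library. The Hoxb8 stretch lay wholly under peaks in all 12 libraries, with either H3.3, either treatment and every antibody. The Hoxb4 stretch had 0% and 100% cover in K27M EPZ and 100% in each of the other 6 H3K27me3 libraries. Suz12 covered 73.7% of it in K27M and 100% in H3WT, and Ring1b covered it wholly in both. The Hoxb1 stretch had no H3K27me3 peak in any of the 4 EPZ libraries, against 55.7% and 100% cover in K27M DMSO and 100% in both H3WT DMSO libraries. Neither Suz12 nor Ring1b had a peak on it in either genotype.

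Hox proteins bind DNA together with Pbx partners at sites of the form TGATNNAT, and an element upstream of Hoxb1 through which Hoxb1 and Pbx keep Hoxb1 active in the hindbrain is a textbook case. On either strand, 8.85% of all promoters in the table held TGATNNAT, and 13.6% held the TATA box letters TATAAA. The Hoxb1 promoter held 1 TGATNNAT on the plus strand, at -162 bases from the start, and no TATAAA. The Hoxb8 promoter held 1 TGATNNAT on the minus strand, at -11 bases from the start, and 2 TATAAA on the minus strand, at -110 and -199 bases. The Hoxb4 promoter held neither in this window. The matches overlapped no other match. Those of TGATNNAT are printed with 8 bases to either side and the match in capitals, as read on the plus strand.
Hoxb1 TGATNNAT: ttggggggTGATGGATgggcgctg
Hoxb8 TGATNNAT: ataaggaaATTGATCAttaaagct

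Along the whole cluster, H3K27me3 peaks covered 28.2 and 68.6 kb in K27M EPZ and 117 and 103 kb in H3WT EPZ, against 122 and 138 kb in K27M DMSO and 135 and 152 kb in H3WT DMSO. As shares of the 173.9 kb, these were 16.2 and 39.5% in K27M EPZ and 67.2 and 59.2% in H3WT EPZ, against 70.4 and 79.3% in K27M DMSO and 77.6 and 87.1% in H3WT DMSO. The 4 EPZ libraries all lay below the 4 DMSO libraries, and the 2 K27M EPZ libraries lay below both H3WT EPZ libraries. Means were 48.4 ± 28.6 kb in K27M EPZ and 110 ± 9.84 kb in H3WT EPZ, against 130 ± 10.9 kb in K27M DMSO and 143 ± 11.8 kb in H3WT DMSO (SD, n = 2 each). The 2 DMSO groups overlapped in cover, and their difference of -13.1 kb, K27M minus H3WT, was close to the SD of either group. Taken between same-numbered DMSO libraries, which the labels do not tie, it was -13.7 and -12.5 kb. Under EPZ the difference between genotypes was -61.5 kb. The mean in EPZ less that in DMSO was -81.7 kb in K27M and -33.4 kb in H3WT. The gap between those effects, -48.3 kb, was not tested, since relabelling genotypes within treatments cannot give a p under 0.05 here.

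**Figure D1:**
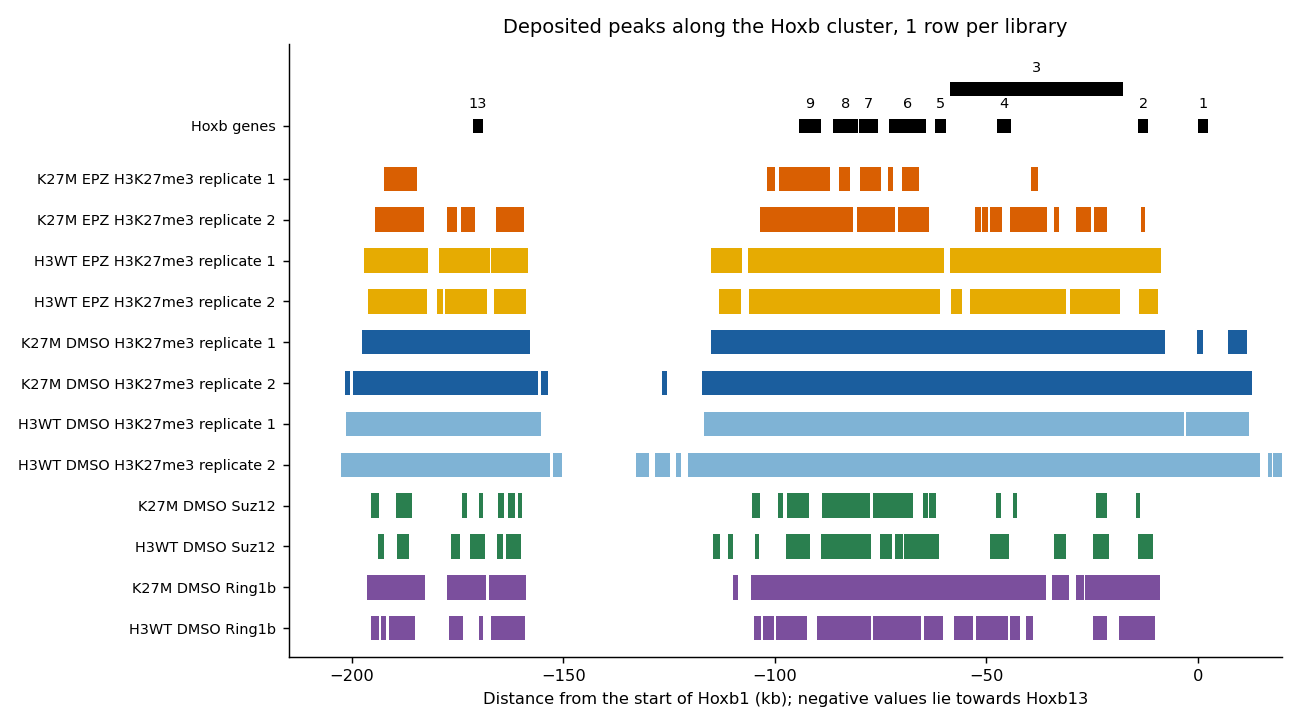
Deposited peaks along the Hoxb cluster in 12 libraries, 1 row each, against distance from the start of Hoxb1 in kb; black boxes mark the 10 genes. In DMSO 1 to 3 H3K27me3 peaks lie between the 5′ side of Hoxb9 and the 3′ side of Hoxb1, and the H3WT EPZ rows end before Hoxb1. The K27M EPZ rows are broken there into 8 and 12 peaks, with the most covered length from Hoxb9 to Hoxb6.

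The shape of the domain differed as well as its length. Over Hoxb9 to Hoxb1 and their windows, K27M DMSO had 3 and 1 peaks and H3WT DMSO had 2 and 1, and the widest single peak spanned 107 and 130 kb in K27M DMSO and 113 and 135 kb in H3WT DMSO. Under EPZ the same stretch was in 8 and 12 pieces in K27M, the widest of 11.9 and 16.8 kb, and in 2 and 5 pieces in H3WT, the widest of 50.1 and 45.1 kb. The K27M EPZ libraries therefore had more and narrower peaks than the H3WT EPZ libraries, with no overlap between the groups in either measure.

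The edges of the cover were read on both sides. On the 5′ side, beyond Hoxb9, the first covered base lay at 96263862 and 96262209 in K27M EPZ and at 96259282 and 96259697 in H3WT EPZ, against 96250659 and 96248614 in K27M DMSO and 96249021 and 96245088 in H3WT DMSO. These edges are of peaks that reach within 10 kb of Hoxb9 to Hoxb1, and each H3WT EPZ library had a further peak just beyond, of 7.50 and 5.18 kb (chr11:96250552-96258048 and chr11:96252426-96257605). At the 3′ edge, the last covered base lay at -37.8 and -12.5 kb from the start of Hoxb1 in K27M EPZ and at -8.63 and -9.43 kb in H3WT EPZ, where negative values are short of the gene. In DMSO it lay 11.6 and 12.8 kb past that start in K27M and 12.2 and 14.7 kb past it in H3WT. The long domain itself took in Hoxb1 in replicate 2 of each DMSO group. In K27M DMSO replicate 1 its 107 kb peak ended at -7.70 kb, near the edge in H3WT EPZ, and a separate peak of 1.43 kb lay over Hoxb1, while in H3WT DMSO replicate 1 a second peak of 15.0 kb covered Hoxb1. A peak thus lay over Hoxb1 in all 4 DMSO libraries and in none of the 4 EPZ libraries.

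Under EPZ the cover was lowest at Hoxb1 and Hoxb2 and highest at Hoxb7, Hoxb8 and Hoxb9 in the mean of all 4 libraries, with no steady order in between. The members are given from the 3′ end, where Hoxb1 and Hoxb2 pattern the hindbrain, to the 5′ end, where Hoxb9 and Hoxb13 pattern the trunk and tail.

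The window of Hoxb1 had 0 and 0% cover in K27M EPZ and 6.11 and 2.55% in H3WT EPZ, against 36.7 and 100% in K27M DMSO and 96.7 and 100% in H3WT DMSO. The gene itself had no cover in any EPZ library. In K27M DMSO it was covered over 52.8 and 100% of its length, and in H3WT DMSO over all of it. Hoxb1 had the lowest cover of the 10 members in each of the 4 EPZ libraries, shared at 0% with Hoxb2 and Hoxb13 in K27M EPZ replicate 1. EPZ averaged 2.16 ± 2.89% and DMSO 83.4 ± 31.1% (SD, n = 4 each), a difference of -81.2 percentage points.

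Hoxb2, which acts beside Hoxb1 in the hindbrain and is switched on by it, had 0 and 16.3% cover in K27M EPZ and 69.2 and 45.7% in H3WT EPZ, against 73.3 and 100% in K27M DMSO and 98.0 and 100% in H3WT DMSO. The gene body kept 0 and 41.9% in K27M EPZ and 100 and 91.0% in H3WT EPZ, against 100% in all 4 DMSO libraries. The Hoxb2 body thus had more cover than its window in H3WT EPZ. The mean in EPZ less that in DMSO was -60.0 percentage points.

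Hoxb3, active in the caudal hindbrain and pharyngeal arches and by far the longest member here (40.8 kb, with Hoxb4 inside its annotated span), had 7.09 and 47.0% cover in K27M EPZ and 96.4 and 81.0% in H3WT EPZ, against 100% in all 4 DMSO libraries. The Hoxb4 window had 6.82 and 62.6% cover in K27M EPZ and 100 and 91.5% in H3WT EPZ, against 100% in every DMSO library. Since H3WT EPZ replicate 1 reached the DMSO value, Hoxb4 was the member of the 3′ stretch whose treatment groups touched. EPZ minus DMSO was -42.1 percentage points for Hoxb3 and -34.8 for Hoxb4.

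Hoxb5, needed by the neural crest cells that form the gut's nervous system, had 17.6 and 47.5% cover in K27M EPZ and 93.8 and 80.2% in H3WT EPZ, against 100% in all 4 DMSO libraries. Its gene body carried no peak in either K27M EPZ library, with the nearest peaks 3.69 and 1.24 kb away, while 81.8 and 50.1% of it was covered in H3WT EPZ. Hoxb6, expressed in the posterior lateral plate mesoderm, had 37.5 and 61.7% window cover in K27M EPZ and 95.1 and 85.5% in H3WT EPZ, against 100% in DMSO. From Hoxb5 to Hoxb6 the cover in K27M EPZ was therefore higher on the 5′ side. EPZ minus DMSO was -40.2 percentage points for Hoxb5 and -30.0 for Hoxb6.

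Hoxb7, Hoxb8 and Hoxb9 held the most cover under EPZ. Hoxb7, whose promoter is widely used to drive transgenes in the kidney's collecting ducts, had 64.3 and 92.9% in K27M EPZ and 100% in both H3WT EPZ libraries. Hoxb8 had 69.7 and 93.3% in K27M EPZ and 100% in both H3WT EPZ libraries. Hoxb9, which patterns the rib cage, had 68.5 and 92.8% in K27M EPZ and 100% in both H3WT EPZ libraries. All 3 windows were at 100% in the 4 DMSO libraries, and a window at 100% cannot show a higher value. The Hoxb9 gene body was wholly covered in all 8 H3K27me3 libraries. EPZ minus DMSO was -10.7 percentage points for Hoxb7, -9.26 for Hoxb8 and -9.68 for Hoxb9.

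Hoxb13, the isolated 5′ member of the tail and the prostate, did not share the cover of Hoxb9. Its window had 0 and 54.4% cover in K27M EPZ and 90.5 and 84.4% in H3WT EPZ, against 100% in all 4 DMSO libraries. In DMSO a separate domain over Hoxb13 was 39.9 and 43.8 kb wide in K27M and 44.2 and 49.3 kb wide in H3WT. In K27M EPZ replicate 1 the nearest peak was 13.1 kb away. In replicate 2 a peak of 3.12 kb covered 18.3% of the gene, and the widest peak nearby, 6.45 kb, lay over no member. The widest peaks in H3WT EPZ, 12.2 and 9.97 kb, covered 100% of the gene. At Hoxb13 the mean in EPZ less that in DMSO was -42.7 percentage points.

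**Figure D2:**
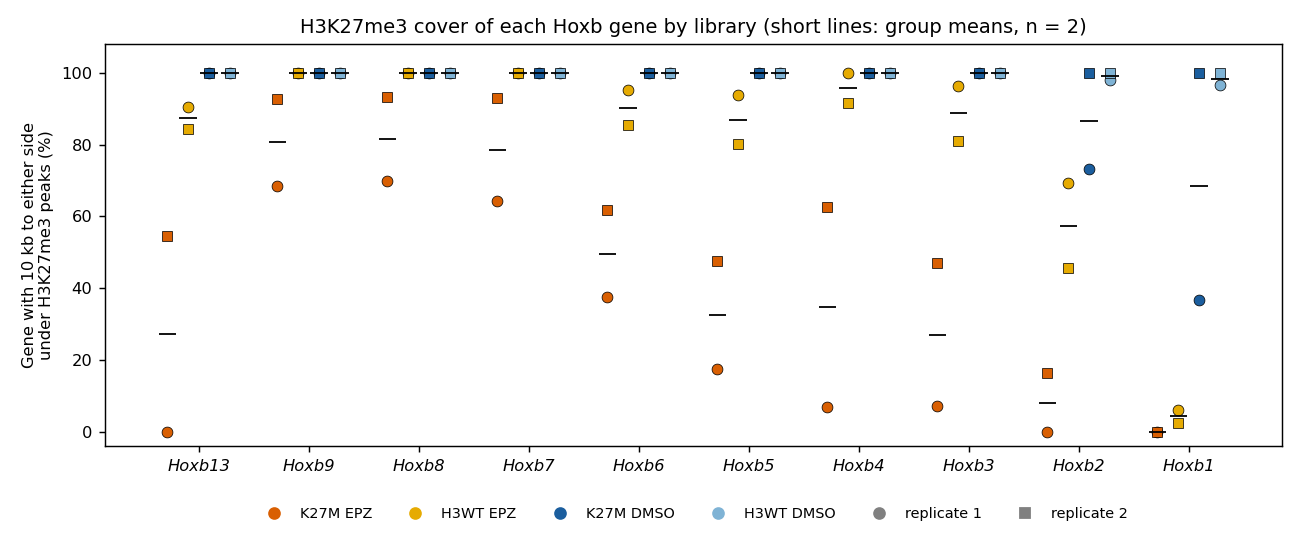
H3K27me3 cover of each Hoxb gene with 10 kb to either side, in percent, for the 8 libraries (circles replicate 1, squares replicate 2, short lines the group means, n = 2), with genes in chromosome order from Hoxb13 to Hoxb1. Both K27M EPZ points lie below both H3WT EPZ points at every gene, Hoxb7 to Hoxb9 keep 64.3% or more in K27M EPZ, and Hoxb1 has 6.11% or less in all 4 EPZ libraries.

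EPZ was tested against DMSO over 4 libraries each, by a two-sided exact permutation test of the covered percent for every protein-coding gene with Benjamini-Hochberg adjustment over all 21631. The smallest p the design allows is 0.0286. Of the 10 members, 6 (Hoxb13, Hoxb6, Hoxb5, Hoxb3, Hoxb2 and Hoxb1) had all 4 EPZ values below all 4 DMSO values, against 6.89% of all genes. Each of these had an exact p of 0.0286 and an adjusted p of 0.415. Hoxb4 had an exact p of 0.143 (adjusted 0.847), and Hoxb7, Hoxb8 and Hoxb9 had an exact p of 0.429 (adjusted 1). No member passed an adjusted p under 0.05, and no gene in the genome did (0 of 21631, 0%), while 1491 genes had an unadjusted p under 0.05. No gene could have passed, since the adjustment would need most genes to reach the smallest p. The median gene had 0% cover in every library. Only a gene with cover in all 4 DMSO libraries can have all EPZ values below all DMSO values. The 6.89% is thus taken mostly over genes that could not be counted, here and for the gene lists below. With these 8 libraries the treatment difference at each member is thus a description of non-overlapping values and not a call. With the gene body alone in place of the window, 2 members had non-overlapping values.

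K27M and H3WT were then compared within each treatment, where 2 libraries against 2 allow no p under 0.333. In DMSO, 0 of the 10 members had both K27M values below both H3WT values, against 11.2% of all genes. For the 8 members from Hoxb13 to Hoxb3 this follows from windows that were full in every DMSO library. Hoxb2 and Hoxb1 had room to differ, and their lowest DMSO values came from K27M DMSO replicate 1, the list with 2351 peaks. Without K27M DMSO replicate 2, 2 members lay below both H3WT libraries.

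Under EPZ, all 10 members had both K27M values below both H3WT values, against 0.615% of all genes. Most genes had no cover at all under EPZ, so the share was also taken over the 347 genes with cover in any EPZ library, of which 38.3% had the same order. Higher values in both K27M EPZ libraries were seen at 0 of the 10 members and at 0.0231% of all genes. The genotype differences, K27M minus H3WT under EPZ, ran from -4.33 percentage points at Hoxb1, where H3WT was already near 0%, to -61.6 at Hoxb3. They were -60.2 at Hoxb13, -61.1 at Hoxb4, -54.4 at Hoxb5 and -49.3 at Hoxb2, and between -18.5 and -21.4 at Hoxb7, Hoxb8 and Hoxb9. K27M EPZ replicate 1 had the lowest number of peaks of all libraries (201). Without it, all 10 members kept the order, and the cluster difference was -41.2 kb.

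**Figure D3:**
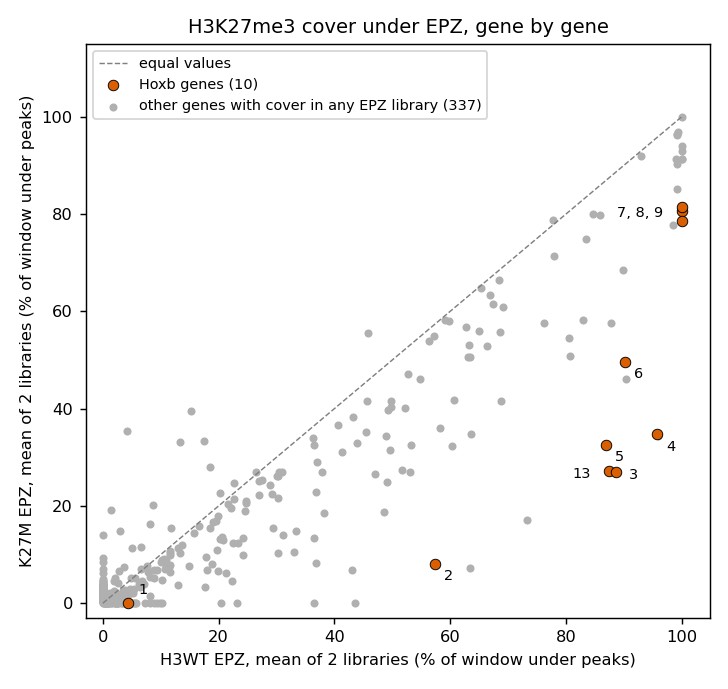
H3K27me3 cover under EPZ of each gene with 10 kb to either side, mean of 2 K27M EPZ libraries (vertical, percent) against mean of 2 H3WT EPZ libraries (horizontal, percent), for the 10 Hoxb genes (orange, numbered) and 337 other genes with cover in any EPZ library (grey); the dashed line marks equal values. All 10 Hoxb genes lie below the line, and Hoxb13, Hoxb5, Hoxb4 and Hoxb3 have more than 86% in H3WT EPZ with less than 35% in K27M EPZ.

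The members were also set beside other genes with as much cover in DMSO. In all 4 DMSO libraries, 68 genes had at least 90% of their window covered, and 8 of the members (all but Hoxb1 and Hoxb2) were among them. Under EPZ the median of those 8 members was 27.6 and 62.2% in K27M EPZ and 98.2 and 88.5% in H3WT EPZ. The median of the other 60 genes was 37.9 and 65.9% in K27M EPZ and 71.5 and 67.1% in H3WT EPZ. The 8 members' median was thus above that of the other 60 genes in both H3WT EPZ libraries, and below it in both K27M EPZ libraries, by little in replicate 2. Over all 10 members the median was 12.4 and 58.1% in K27M EPZ and 95.7 and 85.0% in H3WT EPZ. The median of all protein-coding genes was 0% in every library.

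Counted by gene body, an H3K27me3 peak lay over 5 members in both K27M EPZ libraries (Hoxb9, Hoxb8, Hoxb7, Hoxb6 and Hoxb3), against 0.578% of all genes. In both H3WT EPZ libraries it lay over 9 members, all but Hoxb1, against 0.791% of all genes. In DMSO it lay over all 10 members in both libraries of K27M (5.22% of all genes) and of H3WT (13.7% of all genes). At Hoxb3 in K27M EPZ replicate 1 the peak took in 3.90% of the gene, so the count of 5 holds a gene with little cover. Requiring a peak over 50% of the gene left 3 members in K27M EPZ, and without K27M EPZ replicate 1 the count was 8.

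The stretches under peaks in all 4 EPZ libraries show where the mark was called in every condition. Inside the cluster there were 8 of them, 28.2 kb in all, which is the whole of what K27M EPZ replicate 1 covered there. The widest, 11.9 kb, lay over Hoxb9 (chr11:96266766-96278689). The others were 2.62 kb at Hoxb8 (chr11:96280881-96283500), 3.34 and 1.64 kb at Hoxb7, 1.19 and 3.93 kb at Hoxb6, 1.59 kb inside Hoxb3 (chr11:96326347-96327939), and 1.95 kb beyond Hoxb9 over no member (chr11:96263862-96265811). Apart from the piece in Hoxb3, all lay between Hoxb6 and the 5′ side of Hoxb9.

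The piece that covers no Hox gene holds the microRNA gene Mir196a-1, and Mir10a lies just 5′ of Hoxb4. Their mature forms are shown because both genes sit in the cluster and their products are tied to Hox genes: miR-196 is known to cleave the mRNA of Hoxb8, and in zebrafish miR-10 represses Hoxb1 and Hoxb3 genes. The seed, bases 2 to 8, is in capitals (RefSeq, GRCm38.p6), and the 2 seeds differ.
mmu-miR-196a-5p: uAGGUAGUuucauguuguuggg
mmu-miR-10a-5p: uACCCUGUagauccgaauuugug

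Mir196a-1 (chr11:96265164-96265265) was wholly under H3K27me3 peaks in all 8 libraries and under Ring1b peaks in both genotypes, with no Suz12 peak in either. Mir10a (chr11:96317165-96317274) had no cover in K27M EPZ replicate 1 and full cover in the other 7 H3K27me3 libraries. Suz12 did not cover Mir10a in K27M and covered it wholly in H3WT, and Ring1b covered it in both. For H3K27me3 and Ring1b, Mir196a-1 was thus covered in the same libraries as the Hoxb9 gene body, while for Suz12 it was not, since Hoxb9 had a Suz12 peak in both genotypes. Among the long noncoding RNA genes, the antisense gene Hoxb3os at the 3′ end had 0 and 21.6% cover in K27M EPZ and 100 and 57.0% in H3WT EPZ, against 100% in every DMSO library. Gm51876, which overlaps Mir196a-1, had 77.3 and 100% in K27M EPZ and 100% in the other 6 H3K27me3 libraries.

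Suz12 peaks, mapped in DMSO alone, covered 42.0 kb of the cluster in K27M and 56.9 kb in H3WT, and Ring1b peaks covered 106 kb in K27M and 77.1 kb in H3WT. With 1 library per genotype these differences, -14.9 kb for Suz12 and 29.0 kb for Ring1b, have no replicate check. Over the genome, the K27M lists were the longer ones for both factors: Suz12 had 1252 peaks in K27M and 631 in H3WT, and Ring1b had 1808 in K27M and 1754 in H3WT. At the Hoxb cluster, Suz12 cover was thus lower in the library with more peaks. This also held for the Hoxc cluster (53.2% in K27M, 62.5% in H3WT) and the Hoxd cluster (42.9% in K27M, 67.0% in H3WT). The Hoxa cluster went the other way, with 84.0% in K27M and 30.8% in H3WT. Hoxb made up 1.06% of all Suz12 cover in K27M and 2.78% in H3WT, and 1.41% of all Ring1b cover in K27M and 1.49% in H3WT.

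A Suz12 peak lay over 9 members, all but Hoxb1, in K27M (2.97% of all genes) and in H3WT (1.88% of all genes). A Ring1b peak lay over the same 9 members in K27M (6.35% of all genes) and in H3WT (5.61% of all genes). Hoxb1 was the member without either, and the nearest Suz12 peak was 13.6 kb away in K27M and 10.6 kb in H3WT. Its nearest Ring1b peak was 8.92 kb away in K27M and 10.2 kb in H3WT.

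Suz12 cover was highest from Hoxb9 to Hoxb6. At Hoxb8 it was 85.1% of the window in K27M and 79.3% in H3WT, and at Hoxb7 it was 83.6% in K27M and 83.5% in H3WT. At Hoxb9 it was 66.8% in K27M and 64.3% in H3WT, and at Hoxb6 59.6% in K27M and 65.4% in H3WT. In the other members with Suz12 the K27M library was lower: 27.7% in K27M and 47.2% in H3WT at Hoxb13, 32.4% in K27M and 45.2% in H3WT at Hoxb5, and 9.06% in K27M and 19.2% in H3WT at Hoxb4. Hoxb3 had 15.9% in K27M and 36.4% in H3WT, and Hoxb2 had 16.3% in K27M and 30.0% in H3WT. The Suz12 libraries of the 2 genotypes were thus closest, Hoxb1 aside, in the 4 genes with the highest mean H3K27me3 cover in K27M EPZ.

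Ring1b cover was broader. It was 100% of the window in K27M at Hoxb9, Hoxb8, Hoxb7, Hoxb6 and Hoxb5, against 86.4, 88.8, 97.3, 85.9 and 81.6% in H3WT. At Hoxb4 it was 93.7% in K27M and 68.4% in H3WT, at Hoxb3 92.2% in K27M and 58.4% in H3WT, at Hoxb2 67.9% in K27M and 49.5% in H3WT, and at Hoxb13 79.7% in K27M and 55.5% in H3WT. In each of the 9 members with a Ring1b peak, the K27M library was thus higher. The share of all genes with this order was not taken. Total Ring1b cover was also larger in K27M, at 7.54 Mb against 5.17 Mb in H3WT. The other Hox clusters had the same order: 98.7% in K27M and 74.5% in H3WT at Hoxa, 97.7 and 80.6% at Hoxc, and 91.1 and 80.7% at Hoxd. One long Ring1b peak of 69.8 kb ran through the cluster in K27M, while the widest in H3WT was 12.7 kb.

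**Figure D4:**
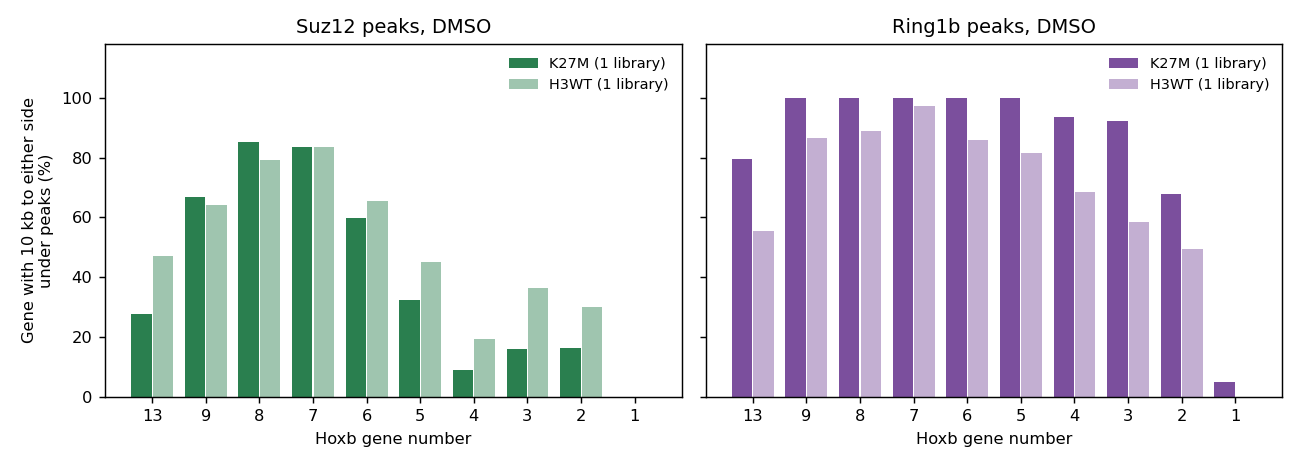
Share of each Hoxb gene with 10 kb to either side under Suz12 peaks (left) and Ring1b peaks (right), in percent, with 1 DMSO library per genotype, so the bars carry no error. Suz12 bars are highest from Hoxb9 to Hoxb6 and absent at Hoxb1, and the Ring1b bar is higher in K27M at all 9 genes from Hoxb13 to Hoxb2.

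The factor peaks nested within the H3K27me3 domains. Every base of Suz12 and Ring1b cover in the cluster lay under H3K27me3 peaks of each of the 4 DMSO libraries, which covered 70.4 to 87.1% of the cluster. In K27M, the H3K27me3 cover under EPZ lay almost wholly within the Ring1b peaks of the same genotype. In H3WT part of it had to lie outside, since it was longer than the Ring1b cover (117 and 103 kb against 77.1 kb). Of the H3K27me3 cover left in K27M EPZ, 100 and 98.9% lay under Ring1b peaks of untreated K27M cells, and 64.6 and 50.6% under their Suz12 peaks. Of that left in H3WT EPZ, 65.9 and 67.3% lay under Ring1b peaks of H3WT DMSO, and 48.7 and 53.7% under its Suz12 peaks. With the Ring1b lists of the genotypes exchanged, the shares were 84.2 and 78.1% for K27M EPZ and 89.5 and 92.0% for H3WT EPZ. The order of the genotypes was then reversed, while on either Ring1b list alone the K27M EPZ shares were the higher ones. Ring1b peaks covered 61.0% of the cluster in K27M and 44.3% in H3WT, and Suz12 peaks 24.2% in K27M and 32.7% in H3WT. As a share of the factors, K27M EPZ cover took in 26.6 and 64.0% of Ring1b cover and 43.3 and 82.7% of Suz12 cover in K27M. H3WT EPZ cover took in 99.9 and 89.9% of Ring1b cover and 100 and 97.0% of Suz12 cover in H3WT. The 3′ edge of H3WT EPZ cover (-8.63 and -9.43 kb from the start of Hoxb1) lay close to that of Ring1b in H3WT (-10.2 kb) and in K27M (-8.92 kb) and to that of Suz12 in H3WT (-10.6 kb), while Suz12 in K27M ended at -13.6 kb.

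Between genotypes, the Suz12 lists shared 35.8 kb, which was 85.3% of the K27M cover and 62.9% of the H3WT cover. The Ring1b cover of H3WT lay wholly within that of K27M and made up 72.6% of it. All Suz12 cover in K27M was under K27M Ring1b peaks, and 83.2% of Suz12 cover in H3WT was under H3WT Ring1b peaks. The extra Ring1b cover in K27M thus lay around a shared core.

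The other Hox clusters were measured in the same way to see where Hoxb differed. From the first to the last gene, Hoxa had 36.1 and 53.2% cover in K27M EPZ and 41.7 and 39.5% in H3WT EPZ, against 97.9 and 100% in K27M DMSO and 75.4 and 90.9% in H3WT DMSO. Hoxc had 58.9 and 80.6% in K27M EPZ and 98.7 and 94.6% in H3WT EPZ, and Hoxd had 44.5 and 80.7% in K27M EPZ and 82.5 and 80.6% in H3WT EPZ, both with 100% in all DMSO libraries. Both K27M EPZ values were below both H3WT EPZ values at 10 of 10 genes in Hoxb, 0 of 11 in Hoxa, 5 of 9 in Hoxc and 5 of 9 in Hoxd. The Hoxc genes not counted, Hoxc10 to Hoxc13, were tied at 100% in K27M EPZ replicate 2 and both H3WT EPZ libraries. Some Hoxd genes were counted on small margins. In replicate 2, Hoxd9 had 97.12% in K27M EPZ and 97.20% in H3WT EPZ, and Hoxd3 had 79.40% in K27M EPZ and 79.44% in H3WT EPZ.

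The difference in cover between K27M EPZ and H3WT EPZ was -35.3 percentage points for Hoxb, 4.08 for Hoxa, -27.0 for Hoxc and -18.9 for Hoxd. Hoxb differed from Hoxa by -39.4 points, from Hoxc by -8.36 and from Hoxd by -16.4, each with an exact permutation p of 0.333, the smallest that 2 against 2 allows. The difference between EPZ and DMSO was -33.1 points for Hoxb, -48.4 for Hoxa, -16.8 for Hoxc and -27.9 for Hoxd. The two-sided exact permutation p of the Hoxb effect was 0.286 against Hoxa, 0.0286 against Hoxc and 0.457 against Hoxd. Over the 6 comparisons the adjusted p was 0.171 for Hoxc and EPZ and at least 0.4 for the rest. None could have passed an adjusted p under 0.05, since the smallest exact permutation p was 0.333 for genotype and 0.0286 for EPZ. These tests therefore cannot decide whether Hoxb differs from another cluster. The total span counts the gap beside Hoxb13, where cover was low in several libraries.

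**Figure D5:**
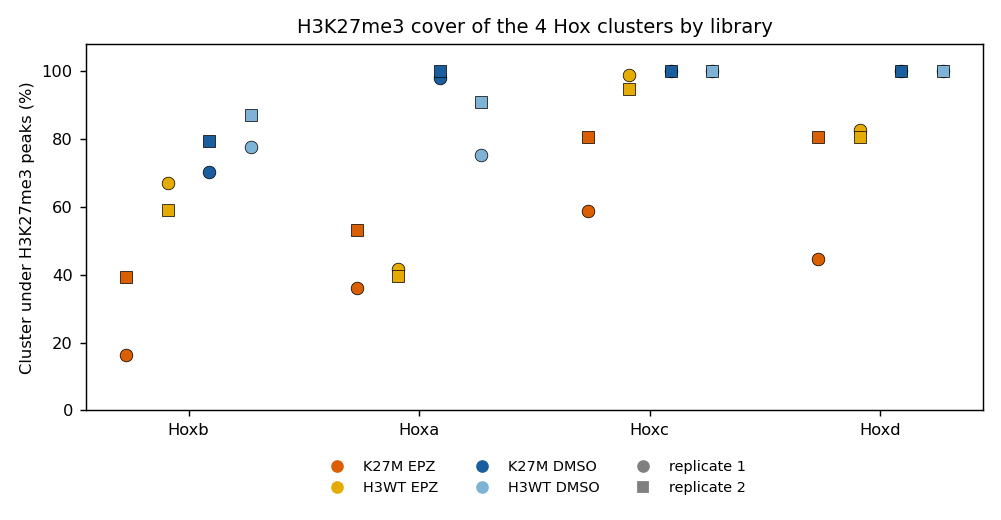
H3K27me3 cover of the 4 Hox clusters, from first to last gene, in percent of their length for the 8 libraries (circles replicate 1, squares replicate 2). At Hoxb both K27M EPZ points (16.2 and 39.5%) lie below both H3WT EPZ points (67.2 and 59.2%), while at Hoxa the 2 groups overlap.

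Genes that act with the Hoxb cluster were read from lists of pathway members. Of 9 Hox cofactors of the Pbx, Meis and Pknox families, which bind DNA beside Hox proteins, 0 had an H3K27me3 peak over the gene in both libraries of any group, against 0.578% of all genes in K27M EPZ, 0.791% in H3WT EPZ, 5.22% in K27M DMSO and 13.7% in H3WT DMSO. One, Pbx4, had lower cover in all EPZ than in all DMSO libraries, against 6.89% of all genes, so 1 of 9 was near the share over all genes. The Pbx4 window had 0% in all 4 EPZ libraries, against 2.63 and 5.47% in K27M DMSO and 4.29 and 5.92% in H3WT DMSO. Cover of the cofactors was thus low beside that of the Hoxb genes themselves.

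Retinoic acid switches Hox genes on from the 3′ end of a cluster. Of 14 genes that make, degrade, bind or sense it, 0 lay under peaks in both K27M EPZ libraries and 2 in both H3WT EPZ libraries, against 5 in both K27M DMSO and 7 in both H3WT DMSO libraries. The shares over all genes were 0.578% in K27M EPZ and 0.791% in H3WT EPZ, against 5.22% in K27M DMSO and 13.7% in H3WT DMSO. In 5 of the 14, all EPZ values were below all DMSO values, against 6.89% of all genes, and 0 passed the adjusted test, which no gene could pass. Aldh1a2, which makes retinoic acid, had 0 and 4.40% window cover in K27M EPZ and 3.76 and 3.85% in H3WT EPZ, against 50.0 and 67.3% in K27M DMSO and 66.8 and 89.2% in H3WT DMSO. Cyp26a1 and Cyp26c1, which degrade it, had 0% in all EPZ libraries. In DMSO, Cyp26a1 had 37.9 and 55.5% in K27M and 55.8 and 57.5% in H3WT, and Cyp26c1 had 31.9 and 46.8% in K27M and 47.0 and 53.3% in H3WT. Crabp1, which binds retinoic acid in the cytoplasm, had 0% in all EPZ libraries, against 31.5 and 42.2% in K27M DMSO and 37.1 and 55.2% in H3WT DMSO. These genes resembled Hoxb1 more than Hoxb9, in that cover was at or near 0 in both genotypes under EPZ. That likeness is shared by most genes, since 347 of 21631 had window cover in any EPZ library. Aldh1a2 and Crabp1 had Suz12 cover in their windows in both genotypes, which Hoxb1, Cyp26a1 and Cyp26c1 lacked.

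Of 12 other regulators of Hox expression, 2 lay under peaks in both libraries of K27M EPZ and 2 in both of H3WT EPZ, against 5 in K27M DMSO and 6 in H3WT DMSO. Among all genes a peak lay over 0.578% in K27M EPZ and 0.791% in H3WT EPZ, against 5.22% in K27M DMSO and 13.7% in H3WT DMSO. In 5 of the 12 regulators all EPZ values were below all DMSO values, against 6.89% of all genes, and 0 passed the adjusted test, which no gene could pass. Cdx2, a caudal-type homeobox factor that activates posterior Hox genes, had 41.8 and 64.0% cover in K27M EPZ and 68.8 and 64.1% in H3WT EPZ, against 90.9 and 100% in K27M DMSO and 100.0 and 100% in H3WT DMSO. Its relatives Cdx4 and Cdx1 had 0% in all 4 EPZ libraries. Cdx2 was thus the one of these 3 Cdx genes with cover under EPZ.

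The genes beyond the ends of the cluster were read by gene body, which leaves out the bases between genes. Between Ttll6 and Hoxb13, each EPZ library had an H3K27me3 peak over no member. It was 7.89 and 11.5 kb wide in K27M EPZ and 15.2 and 13.9 kb in H3WT EPZ. The Ttll6 window, which reaches into it, had 4.69 and 8.06% cover in K27M EPZ and 12.3 and 10.8% in H3WT EPZ. On the Hoxb13 side, Ttll6, a tubulin polyglutamylase 28.1 kb away, had no gene body cover in any EPZ library, against 1.04 and 8.29% in K27M DMSO and 27.3 and 51.2% in H3WT DMSO. Calcoco2, an autophagy receptor gene next to it, had none in any EPZ library, against 4.29 and 25.1% in K27M DMSO and 44.2 and 74.3% in H3WT DMSO. On the Hoxb1 side, Skap1, a T cell adaptor gene 96.3 kb away, had none in any EPZ library, against 18.7 and 52.2% in K27M DMSO and 49.4 and 73.8% in H3WT DMSO. The next genes, Atp5g1 on the Hoxb13 side and Snx11 and Cbx1 on the Hoxb1 side, had no gene body cover in any of the 8 H3K27me3 libraries. Outside the cluster the DMSO cover was partial and both K27M DMSO libraries lay below both H3WT DMSO libraries at Ttll6 and Calcoco2, while the groups overlapped at Skap1.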

How the data were processed

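Per the submitters' processing notes, Bowtie 1.1.2 and build mm10 were used. How peaks were called, with which threshold and control, and the depth of each library are not given in the sources used here, so no interval based on reads could be given. One list per library was deposited by the authors, with chromosome, start and end of each peak. The score column that the authors deposited was 0 in all 100144 lines and was not used. The narrowest deposited peak was 1001 bp. The 2 IgG libraries were not analysed here.

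Touching peaks were merged. Gene positions came from the RefSeq table of GRCm38.p6 (chromosomes 1 to 19 and X). Cover was the share of a gene with 10 kb to either side, of the gene, or of the cluster, that lay under peaks, and an overlap of at least 1 bp counted as a peak over a gene. EPZ and DMSO were compared by two-sided exact permutation over 70 relabellings for every gene, with Benjamini-Hochberg adjustment. The procedure was checked on simulated data. Genotypes within a treatment were compared gene by gene without a test, as were Suz12 and Ring1b, and the effects on Hoxb and each other Hox cluster were compared by exact permutation over 6 comparisons. Alternatives were other flanks, the gene alone, joined or wide peaks, leaving out each library, and a block on the replicate number. Named genes were the 10 members, noncoding genes inside the cluster, the 3 nearest genes beyond each end, up to 4 genes per list with the highest DMSO cover, and the 5 genes outside the Hox clusters most like the members' mean over the 12 libraries. An item that this rule takes is not reported here. The members and lists were chosen with earlier results of these data known. Nothing in the labels ties same-numbered libraries of 2 groups, so whether they share more than a number is not known. Python 3.11.15, NumPy 2.4.6, pandas 2.3.3 and matplotlib 3.10.9 were used.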

Additional observations from a re-analysis of the deposited data

How the results depend on the processing

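The cluster's cover differed in the same direction under every alternative run. EPZ minus DMSO was -57.6 kb and lay between -70.1 and -40.6 kb with single libraries left out. K27M minus H3WT was -13.1 kb in DMSO (-21.4 to -4.79 kb) and -61.5 kb under EPZ (-81.7 to -41.2 kb). Without Hoxb13 these were -36.2, -4.17 and -42.6 kb over the shorter stretch. The 6 members whose EPZ values lay below DMSO became 2 with the gene alone, 9 with 20 kb to either side, and 6 to 7 with single libraries left out. The 0 members lower in K27M in DMSO became 0 to 2, and the 10 lower in K27M under EPZ were 10 each time a library was left out, 9 with 5 kb to either side and 7 with the gene alone. The 5 members with a peak over the gene in both K27M EPZ libraries became 3 with at least 50% of the gene required, and 5 to 8 with a library left out. For the single Suz12 libraries the difference of -14.9 kb was -10.9 kb without Hoxb13 and -27.4 kb with peaks of at least 3 kb. For Ring1b 29.0 kb became 23.5 and 31.3 kb under the same alternatives. With the replicate number as a replicate block, the cluster difference was -57.6 kb for EPZ (pairs from -94.2 to -18.1 kb), with 6 and 10 members in the same order as before. For K27M minus H3WT the pairs ran from -13.7 to -12.5 kb in DMSO and from -88.6 to -34.3 kb under EPZ. The block gave 0 genes with an adjusted p under 0.05 and could give none, as its smallest exact permutation p was 0.0556. Deviations of same-numbered libraries correlated at 0.606 between the DMSO groups and at -0.463 between the EPZ groups. Crossing the numbers under EPZ, chosen after seeing the data, left 10 members. Leaving out a library gave 0 genes at an adjusted p under 0.05 each time, which the smallest p of that test also fixed beforehand. Unknown depth and full windows limit what DMSO values can show.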

Other observations

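Outside the Hox clusters, the 5 genes whose cover over the 12 libraries was nearest to the mean of the Hoxb members were Foxa1, Six6, Foxa2, Prdm13 and Mnx1, all of which encode transcription factors of development. Their mean absolute differences from that mean were 7.09, 7.39, 7.60, 8.12 and 8.31 percentage points. Foxa1, a forkhead factor of endoderm and floor plate, had 30.4 and 53.3% window cover in K27M EPZ and 64.3 and 56.9% in H3WT EPZ, against 97.6 and 98.5% in K27M DMSO and 97.3 and 98.6% in H3WT DMSO. Mnx1, a homeobox factor of motor neurons, had 26.2 and 43.5% in K27M EPZ and 72.0 and 55.2% in H3WT EPZ, against 93.7 and 100% in K27M DMSO and 95.5 and 100% in H3WT DMSO. For Prdm13 the values were 13.7 and 50.9% in K27M EPZ and 60.8 and 59.7% in H3WT EPZ. The mean of the members was 27.2 and 56.9% in K27M EPZ and 85.1 and 77.1% in H3WT EPZ, which is above all 5 genes in H3WT EPZ.

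The Hoxb cluster made up 2.55 and 3.28% of all H3K27me3 cover in K27M EPZ and 4.95 and 5.20% in H3WT EPZ, against 0.910 and 0.211% in K27M DMSO and 0.310 and 0.0699% in H3WT DMSO. The share under EPZ was above that in DMSO in every library, and total cover differed widely between the same libraries.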
